A study of Mus musculus with 2 samples.

Results

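AP-1 is a family of transcription factors built from paired Jun and Fos proteins, and the immediate early genes are the genes that cells transcribe first after a stimulus. Of this group, 10 genes were taken by name from 20660 named genes on the array, namely the AP-1 subunits Jun, Junb, Jund, Fos, Fosb and Fosl2, the related stress factor Atf3, and Egr1, Ier2 and Dusp1. The rule used names and no measured value, although the names were picked with earlier results of these data known. RefSeq accessions of the spots led to 11 probes, with 2 for Fosl2 and 1 for each of the other genes. The question was how the mRNA of these genes differed between pre CFU-E, an early erythroid progenitor fraction, of ESAM-KO and of WT mice recovering from bone marrow injury.

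Both groups were C57BL/6 mice, 8 to 12 weeks old, that received a single injection of 120 mg/kg of 5-FU, a drug that kills dividing marrow cells, and were sacrificed 8 days later. The WT group was wild type, and the ESAM-KO group carried a knockout of endothelial cell-selective adhesion molecule in the germline, so that it was not limited to erythroid cells. For each genotype, marrow of 3 mice was pooled, and cells that lacked lineage markers and Sca1, carried c-Kit, endoglin and CD150, were low in CD41, and had no or little FCgRII/III were sorted for 1 Cy3 array. The study had no untreated group here and 1 pool per genotype, hence neither an SD between samples nor a p-value can be given, and genotype, pool, sort and RNA amplification cannot be told apart.

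Intensities are those of the scanner software after its background subtraction. Each array was set to its 75th percentile, 201.1 for WT and 250.4 for ESAM-KO, and a ratio below is always that of ESAM-KO to WT. This scaling changed each log2 ratio by -0.32. Ratios are on the scaled log2 values unless called unscaled, and the error given with a ratio is that of the scanner software for the spots, which holds nothing of the variation between mice. The targeted gene, Esam, gave 27.4 in WT against 20.6 in ESAM-KO, near background on both arrays, with a log2 ratio of -0.73 ± 0.31, so it gives a weak check of the genotypes. Of 12 markers of erythroid progenitors, all were above background on both arrays, with a median log2 ratio of -0.34, or -0.03 without scaling. With the scaling used, 3 were above 0 and 9 below it, and 10 were within 2-fold. They ranged from -2.52, for the globin gene Hbb-bs, to 0.89. Among the genes of the sort, Kit had a log2 ratio of -0.35, Eng of -0.80 and Slamf1 of 0.05, and the erythroid factor Gata1 read 5959 and 5889, a log2 ratio of -0.33. The array profiles also differed in neutrophil genes. ESAM-KO was lower for each of the 11 measured neutrophil markers, past 2-fold, led by Ctsg at -4.68, Ltf at -4.19, Mpo at -3.82 and Lcn2 at -3.50, with a median log2 ratio of -3.34, and their summed signal relative to the 75th percentile was 298 in WT and 40.3 in ESAM-KO. None of these 11 was at background on either array, although the lineage antibodies of the sort included Mac1 and Gr1. In pooled sorted cells, fewer cells of a type and less RNA per cell cannot be told apart.

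Jun proteins pair with each other or with Fos proteins through a leucine zipper, whereas Fos proteins need a Jun partner, and the pairs bind AP-1 sites in DNA. In resting cells the levels of Fos, Egr1 and Ier2 mRNA are low, and growth factors, cytokines or stress raise them within minutes through MAP kinases that act on factors already bound to their promoters. Their mRNAs are short-lived, and Dusp1, a phosphatase of those kinases, is itself an immediate early gene that limits the signal. In blood cells, Junb is known to restrain the proliferation of stem and progenitor cells.

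The start regions of these genes are shown because factors that switch on immediate early genes bind near the start, although some of their sites lie further away. RefSeq promoters of build GRCm38.p6 were found for 8 of the 10 genes, all but Egr1 and Ier2. The 250 bases before the start of transcription are printed 5′ to 3′ for the 4 genes with a log2 ratio above 0 and for Junb, the lowest. Capitals mark TGACGT or TGACNTCA on either strand. The first is the core of the cyclic AMP response element, the second takes in that element and its variant in the Jun promoter, and they can overlap.
Fos, chr12:85473640-85473889, plus strand: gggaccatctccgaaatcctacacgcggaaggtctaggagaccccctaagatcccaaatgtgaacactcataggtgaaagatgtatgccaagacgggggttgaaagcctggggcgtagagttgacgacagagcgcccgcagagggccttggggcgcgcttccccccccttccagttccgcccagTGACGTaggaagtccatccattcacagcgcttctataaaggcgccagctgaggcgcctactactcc
Dusp1, chr17:26508473-26508722, minus strand: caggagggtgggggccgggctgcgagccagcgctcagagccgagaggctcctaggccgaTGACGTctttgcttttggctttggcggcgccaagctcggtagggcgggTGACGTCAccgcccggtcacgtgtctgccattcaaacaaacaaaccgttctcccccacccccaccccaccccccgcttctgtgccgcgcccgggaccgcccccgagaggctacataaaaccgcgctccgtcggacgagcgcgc
Jun, chr4:95052223-95052472, minus strand: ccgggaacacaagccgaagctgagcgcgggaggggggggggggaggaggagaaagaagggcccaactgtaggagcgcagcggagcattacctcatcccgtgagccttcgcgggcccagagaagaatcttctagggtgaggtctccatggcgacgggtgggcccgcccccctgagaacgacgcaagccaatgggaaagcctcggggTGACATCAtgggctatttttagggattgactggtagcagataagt
Atf3, chr1:191183334-191183583, minus strand: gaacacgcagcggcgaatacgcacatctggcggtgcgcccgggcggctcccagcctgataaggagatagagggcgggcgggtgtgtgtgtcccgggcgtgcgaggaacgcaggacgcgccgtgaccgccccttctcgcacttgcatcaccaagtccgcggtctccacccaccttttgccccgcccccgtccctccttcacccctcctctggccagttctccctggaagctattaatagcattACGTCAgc
Junb, chr8:84978749-84978998, minus strand: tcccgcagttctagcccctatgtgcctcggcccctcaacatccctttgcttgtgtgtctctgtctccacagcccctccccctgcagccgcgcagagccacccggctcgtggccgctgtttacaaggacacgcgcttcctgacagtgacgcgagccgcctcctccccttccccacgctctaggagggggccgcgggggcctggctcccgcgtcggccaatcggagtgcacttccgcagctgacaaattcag
One of these letter patterns was present in 4 of the 8 promoters, those of Fos, Dusp1, Jun and Atf3, and in 12.2% of all 32851 promoter windows of this length. TGACGT lay 66 to 61 bases before the start in Fos and 8 to 3 bases before it in Atf3, and TGACNTCA lay 45 to 38 bases before the start in Jun and 143 to 136 in Dusp1, where TGACGT also lay 191 to 186 bases before the start. Neither pattern was found in the windows of Junb, Jund, Fosb and Fosl2. The patterns were picked after the values and the sequences had been seen, so the match with the sign of the ratio is a description of these 8 windows. That sign lay within the scanner error for Atf3, at 0.14 ± 0.20, and for Fosl2, at -0.06 ± 0.20. Without scaling it changed for Fosb and Fosl2. A CArG box, the letters bound by serum response factor, was in 0 of the 8 and in 1.47% of all windows, and the AP-1 site TGACTCA was in 0 of the 8 and in 4.46%. GGGCGG, the letters of a GC box, was in 6 of the 8 and in 32.7% of all. A pattern absent from these windows may lie outside them.

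Of the 10 genes, Fos differed most between the arrays. Its probe was printed as 10 spots, which read from 153 to 206 in WT, with a median of 174, and from 492 to 590 in ESAM-KO, with a median of 519. The highest WT spot lay well below the lowest ESAM-KO spot, as the plot of the Fos spots shows. After 1 spot with an outlier flag on the ESAM-KO array was left out, the log2 ratio was 1.29 ± 0.21, or 2.44-fold higher in ESAM-KO, and the SD between the 9 spots was 0.11. The spots lie on the same array and share the labelled cDNA, so they measure hybridisation and scanning. Before background correction the median Fos spot stood at 200.2 in WT and 527.5 in ESAM-KO over a local background of 37.5 and 36.5, so the WT signal was modest but clear of background.

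**Figure D1:**
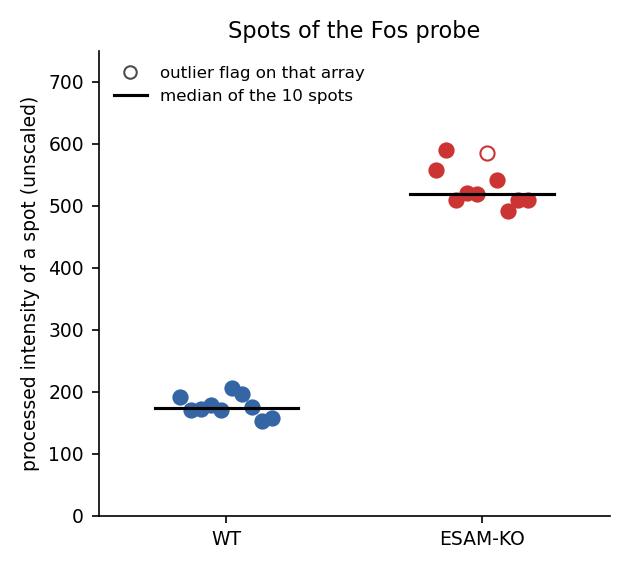
Processed intensity of each of the 10 Fos spots (vertical axis, unscaled, linear) on the WT and the ESAM-KO array, with a line at the median of each. The ESAM-KO spots, from 492 to 590, all lie above the WT spots, from 153 to 206, and the open point is the spot flagged as an outlier on the ESAM-KO array.

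Fos was the 1 gene of the 10 past the 2-fold criterion of the study. Among all 14138 named genes with a ratio, 15.4% were past 2-fold, with 7.00% higher and 8.39% lower in ESAM-KO, so that 1 of 10 is no more than the array as a whole. Lower genes made up 54.5% of all that passed 2-fold, but 28.8% if arrays were left unscaled and 66.8% with median scaling. That share was 59.7% with quantile normalization and 67.3% with normexp background correction and quantile normalization. A log2 ratio above that of Fos was found for 2.67% of the 12615 genes above background on both arrays. When those genes were put in 4 groups of equal size by signal, Fos fell in the second brightest, in which 3.84% were higher by more than 2-fold and 10.8% differed by it either way. In the brightest group, which held 7 of the 10 genes, these shares were 0.793% and 2.63%. Fos was past 2-fold under each other scaling and normalization, from 1.16 with median scaling to 1.61 without scaling, and at 1.07 with normexp background correction of the median spot signals followed by quantile normalization. The filters and probe choices could not move it, since it had 1 probe and was above background on both arrays.

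Fosb and Fosl2, the other Fos genes among the 10, had log2 ratios slightly below 0. Fosb, which encodes a Fos protein with a strong activating domain, gave 22218 in WT against 23661 in ESAM-KO. Its log2 ratio was -0.23 ± 0.20, or 0.09 unscaled. Fosl2, which encodes Fra-2, read 1393 and 1662 at its brighter probe, a log2 ratio of -0.06 ± 0.20, and 254 and 269 at the dimmer one, a log2 ratio of -0.23 ± 0.21. Both Fosl2 probes were thus close to the scaled level of WT, and their ratios differed by 0.17, within the error of the scanner and below the median difference of 0.41 between the brightest probes of the 3056 genes measured by more than 1 probe. The Fos ratio exceeded that of Fosb by 1.51 ± 0.29 on the log2 scale, a difference that the scaling between arrays leaves as it is.

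The Jun genes did not differ in the same direction. Jun, the main partner of Fos, had an intensity of 1276 in WT against 1973 in ESAM-KO, and its log2 ratio was 0.31 ± 0.20. Junb, which can oppose Jun at some promoters, read 967 and 733, a log2 ratio of -0.72 ± 0.20, or 1.64-fold lower in ESAM-KO. Jund, the Jun gene that is expressed most steadily in resting cells, read 49011 and 41320, a log2 ratio of -0.56 ± 0.20, or 1.48-fold lower. Neither Junb nor Jund was past 2-fold, but both were lower in ESAM-KO under every other scaling, normalization and background correction, from -0.85 to -0.40 for Junb and from -0.69 to -0.25 for Jund. Jun was higher under each of these, from 0.18 to 0.63. The ratio of Jun exceeded that of Junb by 1.03 ± 0.29, and the ratio of Fos exceeded that of Junb by 2.01 ± 0.29 on the log2 scale. Among all genes above background on both arrays, 12.5% had a lower log2 ratio than Junb.

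Of the remaining 4 genes, Dusp1 stood apart. Its intensity was 1556 in WT against 3276 in ESAM-KO, which was 1.69-fold higher after scaling (log2 ratio 0.76 ± 0.20). A higher ratio was found for 1135 of the 12615 genes above background on both arrays. This was within 2-fold except without scaling, where it reached 1.07. Atf3, a bZIP factor that stress and DNA damage induce, read 1105 and 1518, a log2 ratio of 0.14 ± 0.20. Egr1, a zinc finger factor of growth and differentiation signals, read 8348 and 9406, a log2 ratio of -0.14 ± 0.20. Ier2, a nuclear protein induced by serum, read 611 and 665, a log2 ratio of -0.19 ± 0.20. These last 3 differed from 0 by less than the error of the scanner, and Egr1 and Ier2, like Fosb and Fosl2, read higher in ESAM-KO without scaling, at 0.17 and 0.12.

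**Figure D2:**
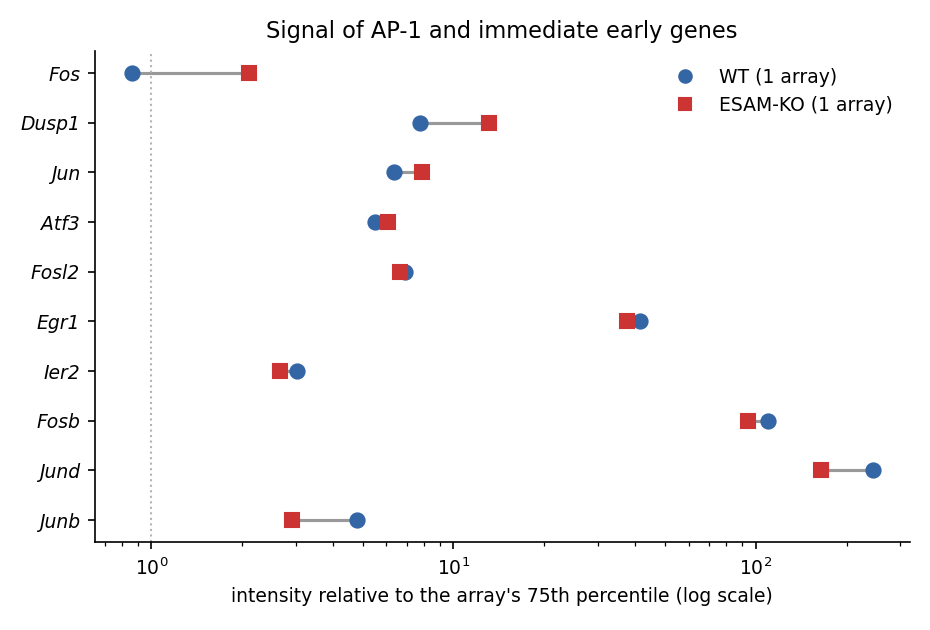
Intensity relative to the 75th percentile of the array (horizontal axis, log scale, dotted line at 1) for the probe of each gene in WT (blue circles) and ESAM-KO (red squares), ordered by ratio, with 1 array per genotype. Fos goes from 0.861 to 2.10 and Dusp1 from 7.73 to 13.1, whereas Jund goes from 244 to 165 and Junb from 4.81 to 2.93, and levels of different probes cannot be set against each other.

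In the order of the log2 ratio, Fos came first, followed by Dusp1, Jun, Atf3, Fosl2, Egr1, Ier2, Fosb, Jund and Junb. The steps from Fos to Dusp1, of 0.53, from Dusp1 to Jun, of 0.45, and from Fosb to Jund, of 0.34, were larger than the scanner error of a difference, 0.29. The other 6 steps, of 0.03 to 0.20, were smaller, so that neighbours from Jun to Fosb, as well as Jund and Junb, cannot be put in order, whereas Jun and Fosb differed by 0.54. Fos and Dusp1 also came highest and Jund and Junb lowest with quantile normalization, with cyclic loess and with normexp followed by quantile normalization, which can change the order of genes. By the lower criterion of 1.5-fold, Fos and Dusp1 were higher and Junb was lower, 3 of 10 genes, beside 33.2% of all named genes, of which 15.7% were higher and 17.5% lower. None of the 10 differed by 3-fold, beside 5.79% of all.

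Over the whole group, 4 of the 10 genes had a log2 ratio above 0 and 6 below it, with a median of -0.10, whereas 48.6% of all genes above background on both arrays were above 0 and 51.4% below it, and their median was -0.02. Without scaling, 8 of the 10 were higher in ESAM-KO, but this shifts every gene alike, and the median of all genes then was 0.30. The number of the 10 above the median of all genes was 4 with the scaling used, with quantile normalization and with cyclic loess, and 5 with normexp and quantile normalization. The median of the 10 genes thus lay close to that of the array, and they differed mainly among themselves. All 10 were above background on both arrays, so none of these ratios is a bound.

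**Figure D3:**
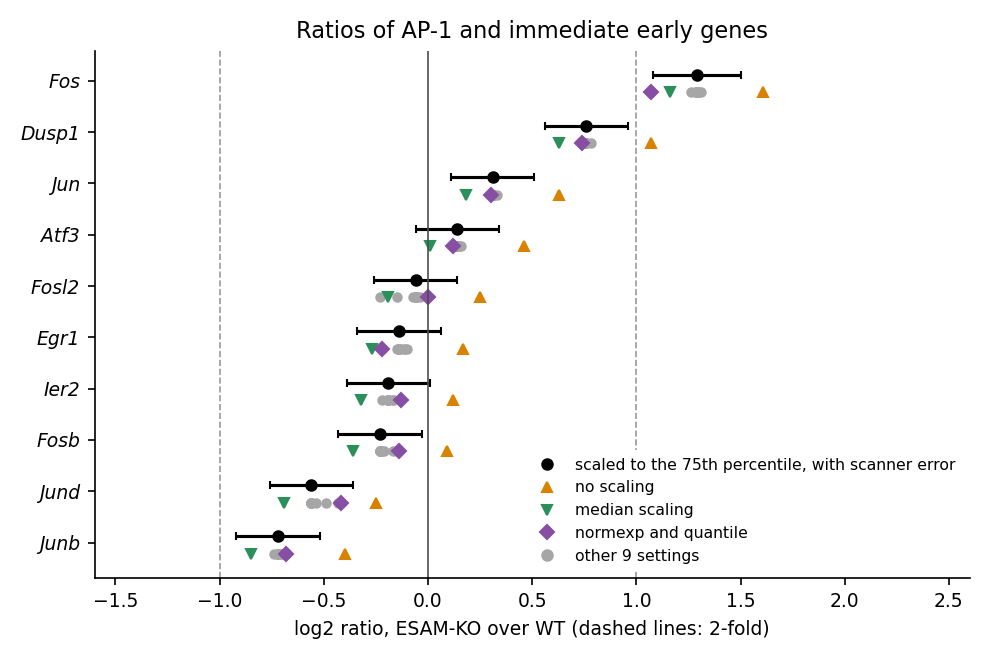
Log2 ratio of ESAM-KO to WT (horizontal axis, dashed lines at 2-fold) for each gene, as a black point with the error of the scanner software and, below it, under the 12 other settings, of which the 4 filters and probe choices can move Fosl2 alone. Fos lies past 2-fold throughout, from 1.07 to 1.61, Junb and Jund lie below 0 under every setting, and Fosb, Fosl2, Egr1 and Ier2 change sign without scaling (orange triangles).

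Other genes of the same pathway were read from lists, beside the 15.4% of all genes past 2-fold. Among 13 bZIP relatives that can pair or compete with Jun and Fos proteins, 9 had a ratio, and 1 of them was past 2-fold at its brightest probe. That was Fosl1, a Fos gene without an activating domain of its own. It read 14.1 in WT, not well above background, and 35.6 in ESAM-KO, so its ratio is a bound. A bound is taken against the dim reading or the lowest signal well above background on that array, whichever is higher. For Fosl1 this was the WT reading itself, which gave 2.02-fold higher in ESAM-KO, with a scanner error of 0.41 on the log2 scale. That bound was below 2-fold under other settings, with a log2 value of 0.89 with median scaling or quantile normalization, 0.99 with cyclic loess and 0.14 with normexp and quantile normalization. The median log2 ratio of the 7 relatives measured on both arrays was -0.25, or 0.07 without scaling. A dimmer probe of Atf2 at -1.85 and a dimmer probe of Mafg at 1.15, named after their values were seen, were past 2-fold. The other probes of these genes were within it.

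Of 43 other immediate early genes, 39 had a ratio, and at their brightest probe 2 were higher by more than 2-fold and 4 were lower. Their median log2 ratio was -0.31 over the 35 genes above background on both arrays, 23 of which were below 0, or 16 without scaling. Of all genes above background on both arrays, 51.4% were below 0 with the scaling used. Egr2, a relative of Egr1, had 52.6 in WT against 231 in ESAM-KO, at a log2 ratio of 1.82 ± 0.22. Egr3 went the other way, from 144 to 54.1, a log2 ratio of -1.73 ± 0.22. The zinc finger genes of the Egr family therefore differed in direction around an Egr1 ratio of -0.14, and Egr4, named after its value was seen, was at -0.78. Socs3, a feedback inhibitor of cytokine receptors, was well above background in ESAM-KO but not in WT, with ESAM-KO higher by at least 2.11-fold, although the log2 bound was 0.95 with median scaling, 0.96 with quantile normalization and 0.29 with normexp and quantile normalization. The lower genes besides Egr3 were Ier5, a relative of Ier2, with a log2 ratio of -1.21, the stress gene Gadd45g and the kinase gene Sgk1, both at -1.08. The second probe of Ier5 read 0.13, so its direction depended on the probe. A dimmer probe of Btg1, named after its value was seen, was past 2-fold at -1.52, beside -0.87 at its brighter probe. With normexp and quantile normalization, Egr2 was at 1.09, but Egr3 at -0.98, Gadd45g at -0.95, Ier5 at -0.94 and Sgk1 at -0.62 were within 2-fold. Without scaling, Ier5 at -0.89, Gadd45g at -0.76 and Sgk1 at -0.77 were within it as well. By the criterion of 1.5-fold, 3 of the 39 genes were higher and 11 were lower, beside 15.7% and 17.5% of all named genes with a ratio.

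Upstream, none of the 16 measured MAP kinases and kinases that act on them was past 2-fold at its brightest probe, with log2 ratios from -0.85 to 0.62 and a median of -0.17. Dimmer probes of 3 of them, named after their values were seen, were past 2-fold, with 75.3 in WT against 23.4 in ESAM-KO for Map3k5 and log2 ratios of 1.72 for Map2k4 and -1.66 for Mapk8. Another Mapk8 probe, not well above background in WT, went the other way, with 14.7 in WT against 44.9 in ESAM-KO. Of the 9 genes of serum response factor, its partners and CREB, 8 were within 2-fold at their brightest probe, and the median was 0.07. The 1 past it was Mrtfa, an actin-regulated partner of serum response factor, for which the log2 ratio was -1.50 with the brighter probe, or -0.74 with normexp and quantile normalization. Its dimmer probe read 12.7 in WT, not well above background, and 30.1 in ESAM-KO. Taken against that WT reading, its log2 bound was 0.93, in the other direction. Among the 8, dimmer probes of Mrtfb at -1.80, Elk3 at -1.46 and Crem at 1.14 were past 2-fold, as was a bound of -1.20 for Elk1. These too were named after their values were seen. Among 6 MAP kinase phosphatases related to Dusp1, Dusp7, which acts on ERK, was higher by 2.10-fold, from 215 to 562, with a log2 ratio of 1.07 ± 0.21, but was within 2-fold with median scaling at 0.94 and with normexp and quantile normalization at 0.86. Of the others, 3 were within 2-fold, and 2 have bounds that do not reach it, namely Dusp4, at least 1.54-fold higher, and Dusp9, at least 1.61-fold lower in ESAM-KO. The median of the 4 measured on both arrays was 0.51.

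Downstream, 10 of 14 genes with known AP-1 sites had a ratio, and 4 were past 2-fold at their brightest probe. A dimmer probe of Cd44, not well above background in WT and named after its value was seen, had a log2 bound of 1.22. The brightest probe of Cd44 was at 0.14, and its other probes were within 2-fold. Ccnd1, which encodes cyclin D1, had 24.0 in WT, near background, against 116 in ESAM-KO. Its log2 ratio was 1.95 ± 0.26, or 0.91 with normexp and quantile normalization. The protease gene Plau read 260 in WT and was not well above background in ESAM-KO, where it was at least 24.7-fold lower. Mmp9, a matrix protease of neutrophils, was at least 8.93-fold lower, and Plaur, the receptor of the Plau product, had a log2 ratio of -1.57 ± 0.28. Plaur read 68.7 in WT and 28.8 in ESAM-KO, the latter near background. With normexp and quantile normalization the log2 values were smaller, at -2.23 for Plau, -1.30 for Mmp9 and -0.71 for Plaur. Plau, Mmp9 and Plaur are also expressed in myeloid cells, and they were lower together with the 11 neutrophil markers, whose part in these ratios was not tested. The neutrophil markers moved in the same direction as Junb and Jund too, and their part in the ratios of the 10 genes was not tested either.

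Fos and Jun are also known to go up together with heat shock genes in cells under stress. All 8 measured heat shock genes had a log2 ratio above 0, with a median of 0.33 and a range of 0.11 to 1.13, but 6 of 8 did so with median scaling and with the dimmest probe of each gene, and 7 of 8 with the mean of the probes. The smallest of these ratios were within the scanner error of 0.20. Of all genes above background on both arrays, 48.6% were above 0, and the median of all was -0.02. Hspa1a, which encodes the inducible HSP70, had 56.3 in WT against 153 in ESAM-KO, at a log2 ratio of 1.13 ± 0.22. At the brightest probe of each gene, it was the 1 of the 8 past 2-fold. It was at 1.00 with median scaling, just within 2-fold, and at 0.66 with normexp and quantile normalization. Hspa1a has a near-identical copy, Hspa1b, which had no probe of its own here, so its signal may hold both. The part of heat shock genes in the Fos ratio was not tested.

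**Figure D4:**
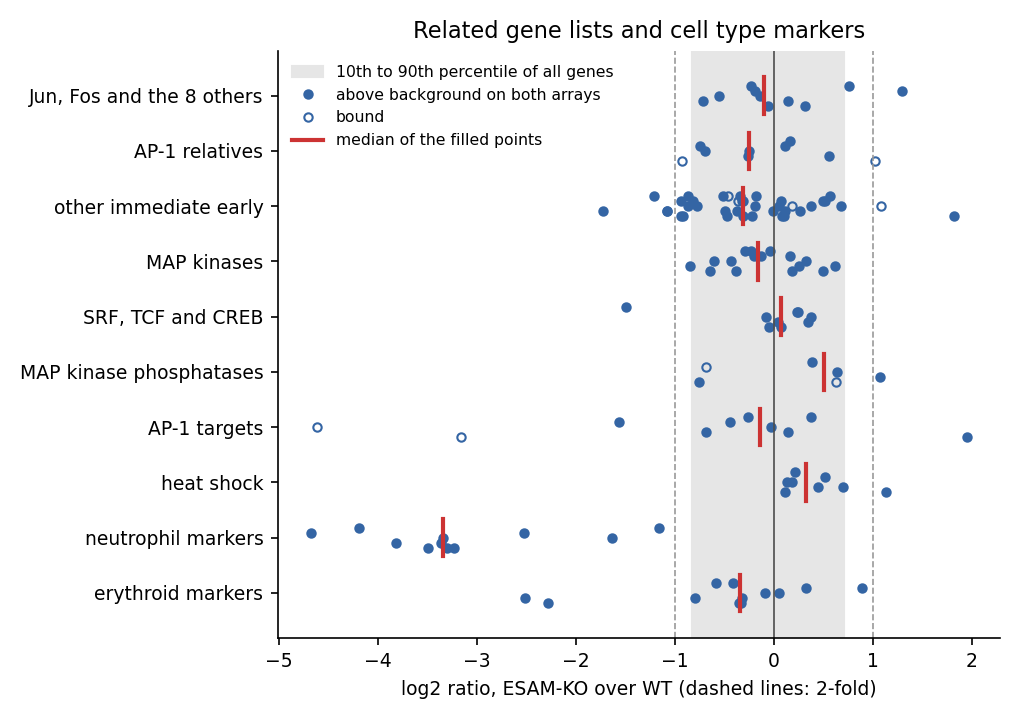
Log2 ratio of ESAM-KO to WT (horizontal axis, dashed lines at 2-fold) for each gene with a ratio in the lists, with open points for bounds, red lines at the median of the filled points and a grey band from the 10th to the 90th percentile of all genes, -0.83 to 0.71. The 10 genes of the first row spread around 0 with Fos and Dusp1 to the right of the band, and the neutrophil markers all lie to the left of it.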

How the data were processed

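Pre CFU-E of WT and ESAM-KO mice were measured on 1 SurePrint G3 mouse 8x60K array each, after amplification with the Ovation Pico WTA System V2. The files deposited by the authors come from the scanner software (Agilent Feature Extraction 10.10.1.1) and hold the intensity of each spot after background subtraction within the array, with its error and flags. The series table repeats it at 3 significant digits. Of 59305 spots that were not controls, 254 with an outlier flag on either array were left out, and no spot was saturated. The scanner software put 57.3% of spots in WT and 61.1% in ESAM-KO well above background, and the number of arrays limits the precision.

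The log2 intensity minus the 75th percentile of the array was averaged over the spots of a probe. Probes with over 50% of their spots well above background were taken as above it. Those above it on 1 array have a bound, or no ratio where the bound did not put that array higher. Accessions were matched without versions to RefSeq (GRCm38.p6), which named 48.9% of the probes, and a gene was read from its probe with the highest mean signal. No test was run, since each genotype has 1 array. The lists, too, were chosen with such results known. Named from the lists are the genes past 2-fold, up to 4 in each direction, besides Esam, Gata1, Kit, Eng and Slamf1, and exceptions are marked in the text. A gene that this rule names is not reported here. Median log2 ratios, over 4 or 5 genes each, were 0.12 for macrophage markers, -1.89 for a joint list of mast cell, basophil and eosinophil markers, -1.54 for B cell, 0.42 for T and NK cell, 0.62 for megakaryocyte and -0.73 for endothelial markers. The joint list ranged from -4.24 to 0.19, with its eosinophil genes lowest, so its median does not hold for each cell type. The endothelial list includes Esam, and its median is the value of Esam itself. Other scalings, normexp (offset 50, on median spot signals, then quantile normalization), other filters, probe choices and thresholds were tried. The counting was tested on simulated data. Tools were Python 3.11.15, R 4.3.3 and limma 3.58.1.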

Additional observations from a re-analysis of the deposited data

How the results depend on the processing

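No paired analysis was possible because there was a single array for WT and a single one for ESAM-KO. Here normexp stands for that background correction of median spot signals with quantile normalization. Log2 ratios of the 10 genes moved by more than the scanner error without scaling, for all 10, and with normexp, for Fos. Filters could move none of them, and probe choices could move Fosl2 alone. The number of the 10 genes past 2-fold, 1, became 2 without scaling, 3 at 1.5-fold and 0 at 3-fold, and their median, -0.10, became 0.21 without scaling, which shifts all genes by 0.32. Median scaling shifted the median of all genes to -0.15, and lower genes made up 66.8% of the genes past 2-fold with it, 28.8% without scaling and 67.3% with normexp, beside 54.5% in the report. Of all genes, 989 higher and 1186 lower past 2-fold became 236 and 486 with normexp and 1801 and 2301 without a filter.

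The number past 2-fold among the bZIP relatives, 1, was 0 with cyclic loess, normexp, the both-array filter, the mean of the probes or 3-fold, 3 without a filter, 2 with the dimmest probe and 4 at 1.5-fold. For the other immediate early genes, 6 became 10 with median scaling, 3 without scaling, 1 with normexp, 11 without a filter, 14 at 1.5-fold and 2 at 3-fold. Their number was 5 with quantile normalization, the both-array filter, the mean of the probes or the dimmest probe. For the MAP kinases, 0 became 1 without a filter, 3 with the dimmest probe and 4 at 1.5-fold. For serum response factor and its partners, 1 became 0 with normexp or at 3-fold and 3 with the dimmest probe. For the phosphatases, 1 became 0 with median scaling, normexp or 3-fold, 2 without a filter and 5 at 1.5-fold. For the AP-1 targets, 4 became 2 with normexp, the both-array filter, the mean of the probes or the dimmest probe. Their number was 6 without a filter, 5 at 1.5-fold and 3 at 3-fold. For the heat shock genes, 1 became 0 with median scaling, normexp or 3-fold, and 2 without scaling, with the dimmest probe or at 1.5-fold. Ier5 reversed from -1.21 to 0.13 at its dimmest probe. For the filter and threshold settings the change follows from their construction, and for the others the cause was not tested. Low signal leaves 3 bZIP relatives, 4 immediate early genes and 4 AP-1 targets without a ratio.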
